A study of Mus musculus with 6 samples.

Results

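The stretch of mouse chromosome 8 from Irf2bp2 to Pard3 (mm10 chr8:126000001-128000000) held 100 of the 11800 peaks in the 6 deposited ATAC-seq peak lists, and it is described here peak by peak. It contains the protein-coding genes Kcnk1, Slc35f3, Coa6, Tarbp1, Irf2bp2, Tomm20, Rbm34 and Pard3, in that order. ATAC-seq cuts accessible DNA with a transposase, so that the pile-up of sequenced tags reports how open the chromatin is. It was applied to M-MDSCs, the monocytic kind of myeloid-derived suppressor cell, which had been isolated by FACS from Hepa 1-6 hepatocellular carcinomas grown in the liver of wild-type, young female C57BL/6J mice that had received vehicle, MS-275 or CXD101 by daily intraperitoneal injection. Both compounds inhibit the histone deacetylases HDAC1, HDAC2 and HDAC3 and were given at the same daily dose by weight. All 3 groups therefore carried a tumor of the same cell line, and by design they differed in the injection, with 2 libraries per group. In its tumor experiments the paper also reports smaller tumors and more tumor NK cells with the inhibitors, and fewer M-MDSCs with CXD101. Mice had been selected by the share of MDSCs in their blood. Batches of sorting, library preparation or sequencing are not given. The model is 1 implanted tumor line in 1 mouse strain.

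The authors pooled the 2 libraries of a group before they called peaks, in each of the 6 ordered pairs of groups. Peaks of MS-275 over vehicle are called MS-275 gained here, and those of vehicle over MS-275 are called MS-275 lost. The same words are used for CXD101, and the inhibitors were also compared directly as MS-275 over CXD101 and CXD101 over MS-275. No value per library is in the lists, so the spread between replicates is unknown, and each MACS2 p-value compares pooled tags and covers counting error alone. The lists end at a q of 0.05, whereas the methods of the study state a threshold on p. The lists reach weaker p-values than that threshold, with a lowest −log10 p of 3.79 for MS-275 gained and 4.50 for CXD101 gained. For both inhibitors they nonetheless hold fewer peaks over vehicle than the paper counts. Whether the lists come from the described run is therefore not known, and the counts depend on the threshold. In bulk libraries, more cells with an open site and a more open site in each cell cannot be told apart. The window was chosen by its number of peaks in these lists. Its counts, folds and p-values are therefore given as a description, with no test.

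Histone deacetylases remove acetyl groups from histone tails, and acetylated histones are a feature of active promoters and enhancers. Irf2bp2 encodes a co-repressor that binds IRF2, and it is known for restraining inflammatory gene programs in macrophages. Pard3 encodes the scaffold of the Par polarity complex. Tomm20 and Coa6 serve mitochondria, as an import receptor and as an assembly factor of cytochrome c oxidase. Kcnk1 is a potassium channel of the K2P family, Slc35f3 a solute carrier, Tarbp1 an RNA methyltransferase and Rbm34 an RNA-binding protein.

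The sequences at the summits that carry the main findings are printed here, so that a reader can see which DNA was opened or closed. Each is 201 bases of the plus strand of mm10, read from the RefSeq copy of that assembly and centred on a summit. The capital letter in the middle marks the summit base, and a longer run of capitals marks a match to the AP-1 consensus TGACTCA or TGAGTCA. The first 3 are the MS-275 gained summits of the window with the lowest p-values.
MS-275 gained, chr8:126707505-126707705: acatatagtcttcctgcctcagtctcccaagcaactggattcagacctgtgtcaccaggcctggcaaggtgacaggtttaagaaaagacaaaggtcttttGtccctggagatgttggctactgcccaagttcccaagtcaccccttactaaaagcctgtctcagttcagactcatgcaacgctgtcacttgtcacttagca
MS-275 gained, chr8:126705300-126705500: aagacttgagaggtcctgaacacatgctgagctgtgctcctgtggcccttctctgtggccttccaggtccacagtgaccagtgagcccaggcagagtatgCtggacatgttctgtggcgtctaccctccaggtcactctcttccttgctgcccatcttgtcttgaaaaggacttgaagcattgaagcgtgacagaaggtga
MS-275 gained, chr8:126698826-126699026: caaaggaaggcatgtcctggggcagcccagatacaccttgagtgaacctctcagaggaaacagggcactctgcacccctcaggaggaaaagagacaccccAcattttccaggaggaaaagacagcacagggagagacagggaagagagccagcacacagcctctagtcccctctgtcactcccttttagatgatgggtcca
The next 2 are the summits that lost signal, the first with MS-275 in an intron of Kcnk1 and the second with CXD101 in an intron of the lincRNA gene Gm31718.
MS-275 lost, chr8:126011106-126011306: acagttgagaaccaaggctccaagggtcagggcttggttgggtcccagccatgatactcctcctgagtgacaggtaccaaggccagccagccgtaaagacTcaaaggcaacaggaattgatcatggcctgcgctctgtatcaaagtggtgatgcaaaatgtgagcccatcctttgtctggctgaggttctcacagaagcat
CXD101 lost, chr8:126884412-126884612: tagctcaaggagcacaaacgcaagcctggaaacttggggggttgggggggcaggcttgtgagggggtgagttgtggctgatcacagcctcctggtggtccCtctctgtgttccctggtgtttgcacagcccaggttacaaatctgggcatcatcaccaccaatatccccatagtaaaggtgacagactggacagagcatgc
The last 3 are the MS-275 over CXD101 summits with an AP-1 match. They are shown because AP-1 had, of the motifs searched, the largest excess in share at these summits over the whole list.
MS-275 over CXD101, chr8:126585700-126585900: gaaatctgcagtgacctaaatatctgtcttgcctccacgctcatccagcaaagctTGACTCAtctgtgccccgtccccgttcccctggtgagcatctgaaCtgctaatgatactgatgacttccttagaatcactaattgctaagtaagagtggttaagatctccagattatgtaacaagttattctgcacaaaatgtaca
MS-275 over CXD101, chr8:126696738-126696938: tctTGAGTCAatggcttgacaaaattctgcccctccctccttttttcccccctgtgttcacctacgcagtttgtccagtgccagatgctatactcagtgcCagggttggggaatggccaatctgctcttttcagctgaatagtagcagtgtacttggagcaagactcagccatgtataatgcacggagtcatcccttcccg
MS-275 over CXD101, chr8:126839566-126839766: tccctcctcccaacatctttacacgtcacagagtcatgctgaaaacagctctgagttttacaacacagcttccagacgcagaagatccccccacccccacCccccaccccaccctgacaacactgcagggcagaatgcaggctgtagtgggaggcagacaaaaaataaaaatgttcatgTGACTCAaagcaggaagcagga

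Most peaks of the window were MS-275 gained, as in the whole series, where 8480 of the 11800 peaks were. The window held 62 MS-275 gained peaks, 32 MS-275 over CXD101 peaks and 4 CXD101 gained peaks. There were also 1 MS-275 lost peak, 1 CXD101 lost peak and no CXD101 over MS-275 peak, of which the genome had 2. The 62 MS-275 gained peaks made 31 per Mb, against 3.22 per Mb over the genome, 8 per Mb in the 2 Mb before the window and 2.85 per Mb from its end to the end of the chromosome. The direct comparison gave 16 MS-275 over CXD101 peaks per Mb, against 0.626 over the genome, 0.5 before the window and 0 after it. CXD101 gained peaks made 2 per Mb, against 0.108 over the genome, 0 before the window and 0.714 after it, and rest on 4 peaks. The lost lists had 0.5 per Mb each, against 0.262 and 0.263 over the genome, and rest on 1 peak each. The window makes up 0.0759% of the genome, and it held 0.731% of all MS-275 gained, 1.94% of all MS-275 over CXD101 and 1.41% of all CXD101 gained peaks.

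When the genome was cut into 1309 bins of 2 Mb, no other bin held as many MS-275 gained peaks. The next bin had 46, the median bin had 5, and 236 bins had none. For MS-275 over CXD101 the next bin held 17. A peak is a summit, and several summits can share an interval. Counted as intervals, the window had 41 for MS-275 gained against 39 in the next bin, and 29 for MS-275 over CXD101 against 16. For MS-275 gained, the margin over the next bin was thus narrower by intervals than by peaks. Since the window was chosen by its number of peaks, its rank among the bins is a description and no support. For CXD101 gained, the 4 peaks were as many as in the next bin, and their 2 intervals were outnumbered in 8 bins.

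**Figure D1:**
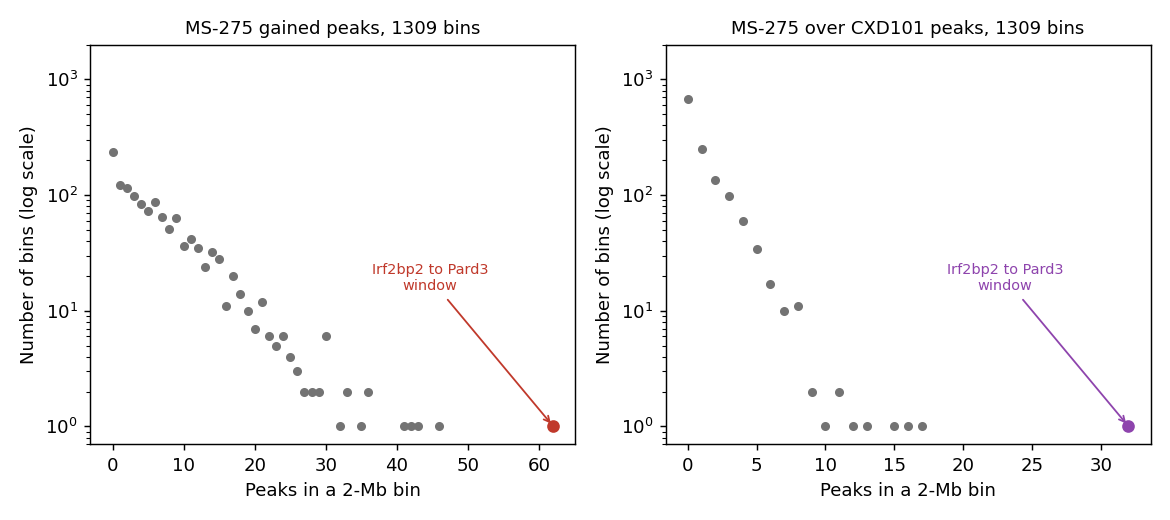
Number of 2-Mb bins of the genome (vertical axis, log scale) by the number of peaks they hold (horizontal axis), for MS-275 gained peaks on the left and MS-275 over CXD101 peaks on the right. Each grey point is a class of bins, and the colored point is the Irf2bp2 to Pard3 window, at 62 and 32 peaks, to the right of all other bins.

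At the edges, the nearest peak inside on the Kcnk1 side was the MS-275 lost peak, 11.1 kb from the boundary with a fold of 3.63. The nearest one outside was an MS-275 gained peak 257 kb away with a fold of 2.65. On the Pard3 side, the last peak inside lay 407 kb from the boundary with a fold of 2.36, and the first outside lay 85.8 kb beyond it with a fold of 2.95. The dense part of the window was thus far from both boundaries.

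Between Irf2bp2 and Tomm20 lies a stretch of 337 kb with no protein-coding gene, and it held 85 of the 100 peaks. There were 51 MS-275 gained peaks in it (15.1 per 100 kb), 29 MS-275 over CXD101 peaks, all 4 CXD101 gained peaks and the CXD101 lost peak. The 113 kb on the other side of Irf2bp2, up to Tarbp1, held 7 MS-275 gained and 2 MS-275 over CXD101 peaks, all of them inside Gm26759. From the window's start to Tarbp1, over 475 kb, there was only the lost peak in Kcnk1. From the start of Pard3 to the window's end, over 936 kb, there were 2 MS-275 gained peaks.

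**Figure D2:**
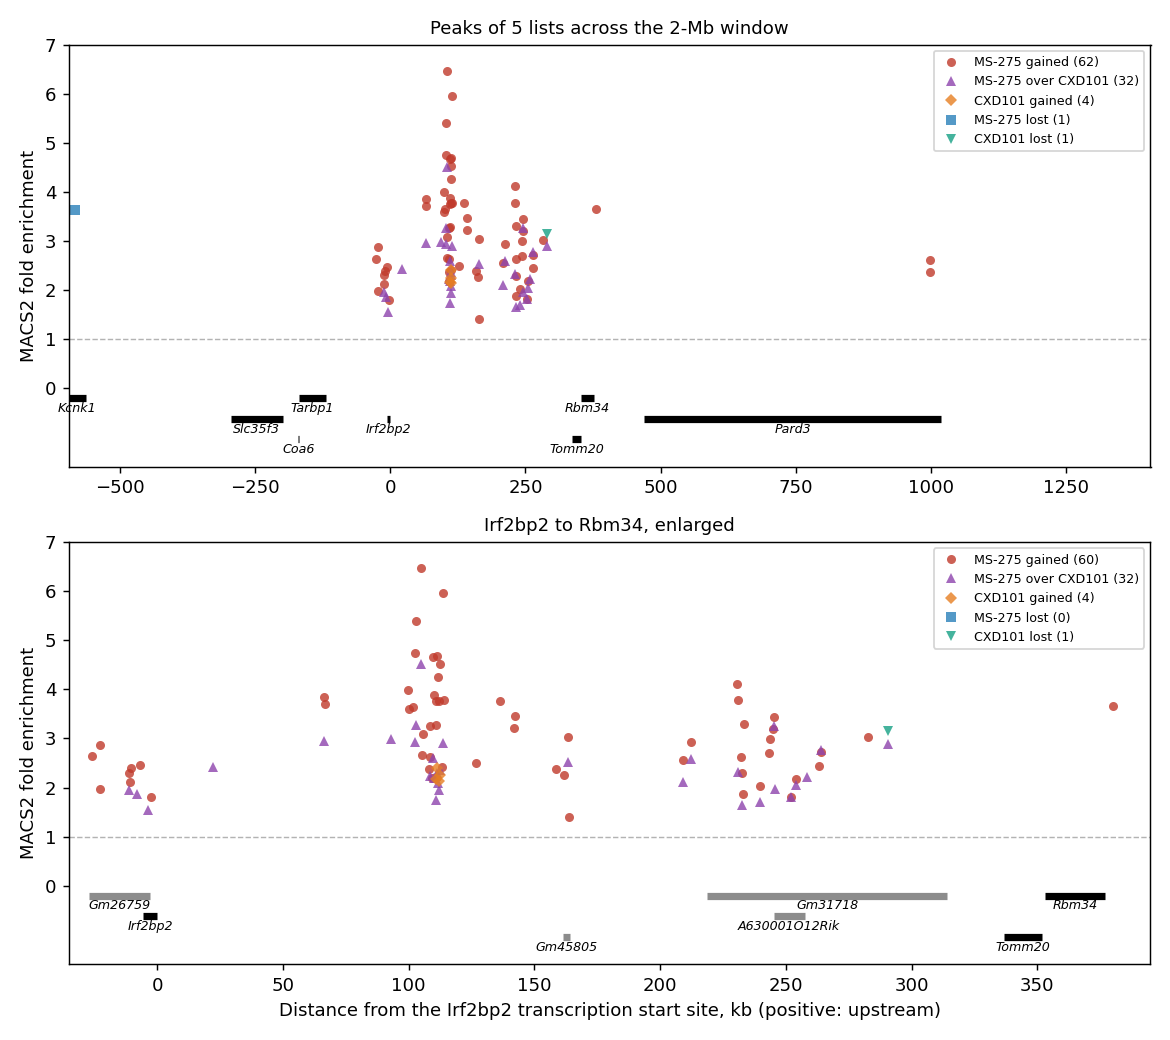
MACS2 fold enrichment (vertical axis) of each peak by its distance in kb from the transcription start site of Irf2bp2 (horizontal axis, positive values upstream), over the 2-Mb window at the top and from Gm26759 to Rbm34 below. Symbols mark the 5 lists with peaks here, with their number in each panel, and bars mark genes (black, protein-coding; grey, noncoding); the peaks crowd between Irf2bp2 and Tomm20 and reach the highest fold, 6.47, at 105 kb.

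Few of the MS-275 gained peaks lay near a protein-coding gene. The median distance to the nearest one was 104 kb, against 0 kb (inside a gene) for the whole list, and 51 of 62 (82.3%) lay more than 50 kb away, against 15.1% of the list. By place, 32 of 62 were intergenic (51.6%, 95% Wilson interval 39.4 to 63.6%), against 27.1% of the list. Only 8 overlapped the 5 kb upstream of a start site of any gene (12.9%, 6.7 to 23.4%), against 31.9% of the list. A further 20 were intronic and 2 exonic. The Wilson intervals, here and below, treat summits as independent, which those sharing an interval or a cluster are not. They are therefore too narrow and no test.

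The peaks fell into 18 clusters when MS-275 gained intervals up to 3 kb apart were joined. The one with the most peaks was chr8:126693566-126708090, which is intergenic and begins 99.6 kb upstream of the Irf2bp2 start site. Its 14.5 kb held 10 MS-275 gained intervals with 23 summits, 13 of the 32 MS-275 over CXD101 peaks and all 4 CXD101 gained peaks. The intervals covered 9.03 kb of the cluster. One of them, chr8:126704309-126706789, was 2481 bp long with 6 summits, and no MS-275 gained interval of the 7071 in the genome was longer or had more summits.

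Of the 10 strongest MS-275 gained peaks of the window by p-value, 9 were in this cluster. MS-275 levels below are tags at the summit, whereas vehicle levels are MACS2 control levels, which can be averages over wider stretches. The strongest, with its summit at 126707605, had 20.6 tags in vehicle and 128 in MS-275 at the same depth, a fold of 5.96 and a −log10 p of 56.3. By p-value it ranked 3 in the whole list of 8480. The summit at 126705400 had 24.4 tags in vehicle and 118 in MS-275, a fold of 4.69 and a −log10 p of 42.1. These are the first and second sequences printed above. The summit at 126698926, the third sequence, had the highest fold of the window, 6.47, with 9.56 tags in vehicle and 67.3 in MS-275. The exception outside the cluster was the summit at 126806211, which lies 212 kb upstream of Irf2bp2 in intergenic DNA. Its vehicle level, an average, was 48.6 tags, and MS-275 reached 144, with a fold of 2.93 and a −log10 p of 28.3.

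Among themselves, the 62 peaks ranged in fold from 1.40 to 6.47 with a median of 3.01, beside a median of 2.88 for the whole list. Their vehicle level ranged from 7.60 to 92.0 tags with a median of 18.5, beside 15.8 for the list. The folds and vehicle levels were thus close to those of the list. Its intervals were longer, with a median of 313 bp against 244 bp, and 34 of the 62 peaks (54.8%) shared an interval with another summit, against 30.6% of the list. By p-value, 5 of the strongest 100 and 16 of the strongest 1000 MS-275 gained peaks of the genome lay here. The lowest fold of the whole list was here too, 1.40 at 126757910 in an intron of the lincRNA gene Gm45805, where vehicle had the highest level of the window, 92.0 tags, and MS-275 had 129.

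Peaks of the 6 lists were merged into 48 sites in the window and 8387 in the genome. An MS-275 gained peak was present in 41 of the 48 sites, a share (85.4%) near the 84.3% of all sites. An MS-275 over CXD101 peak was present in 24 of 48 (50.0%, 36.4 to 63.6%), against 18.3% of all sites. A CXD101 gained peak was present in 1 site, against 3.04% of all sites. An MS-275 lost peak was present in 1, against 6.62%, and a CXD101 lost peak in 1, against 7.13%. No site held a CXD101 over MS-275 peak, against 0.0238%.

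**Figure D3:**
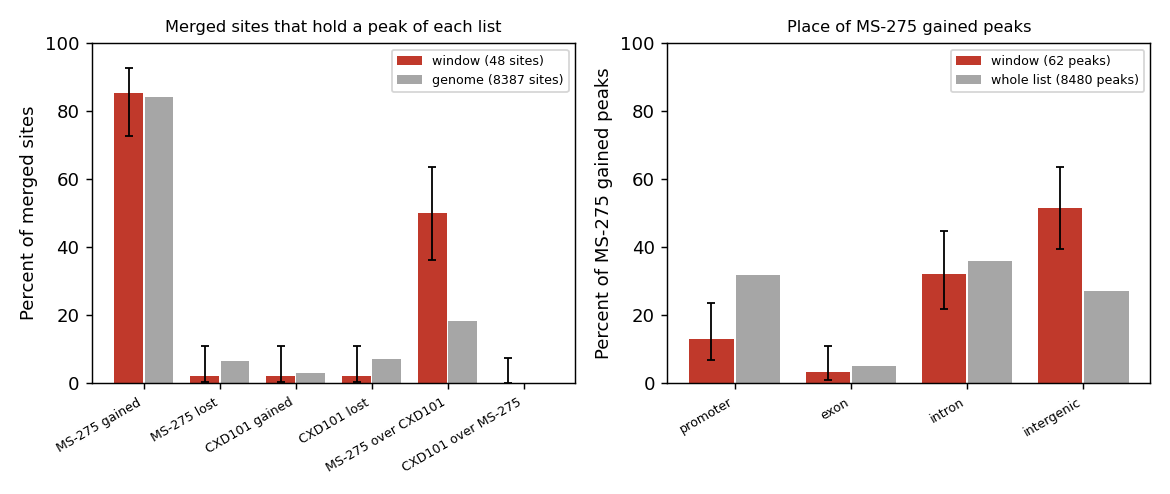
Left, percent of merged sites that hold a peak of each list, in the window (red, 48 sites) and in the genome (grey, 8387 sites). Right, percent of MS-275 gained peaks by place, in the window (red, 62 peaks) and in the whole list (grey, 8480 peaks); error bars are 95% Wilson intervals for counting error, and the red bar for MS-275 over CXD101 stands at 50.0% beside 18.3%.

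Of the 62 MS-275 gained peaks, 36 overlapped an MS-275 over CXD101 peak (58.1%, 45.7 to 69.5%), against 17.4% of the MS-275 gained peaks of the genome. Both lists use the same MS-275 libraries, so they are not independent. By sites, 23 held MS-275 gained peaks alone, 17 held both, 5 held MS-275 over CXD101 alone, and 1 site, in the largest cluster, held MS-275 gained, CXD101 gained and MS-275 over CXD101 peaks together. The median fold of the 32 MS-275 over CXD101 peaks was 2.27 (1.54 to 4.51), beside 2.39 for the whole list. Their median CXD101 level was 39.9 tags, beside 25.9 for the list.

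At 26 summits of the window, an MS-275 gained and an MS-275 over CXD101 summit lay within 250 bp of each other, so that all 3 groups could be read at vehicle depth. The median level was 22.5 tags in vehicle, 35.3 in CXD101 and 79.1 in MS-275. CXD101 lay between vehicle and MS-275 at 25 of the 26. CXD101 was above vehicle at 96.2% of them (81.1 to 99.3%), against 86.3% of the 1184 such summits of the genome. These summits were picked for being high in MS-275 against both other groups. The control level of MACS2 is the highest of the local pile-up and of averages over wider stretches. In vehicle it was a whole number of tags at 23 of the 62 MS-275 gained summits and went in steps of 0.2 or 0.02 at the other 27 and 12, so that it was an average at these. In CXD101 it was whole at 14 of the 32 MS-275 over CXD101 summits and went in steps of 0.2 or 0.02 at 16 and 2.

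The distance between CXD101 and vehicle varied along the locus, which is given as a description, since summits are not replicates and neighbours can share an averaged control level. At the 13 matched summits of the largest cluster, the CXD101 level was 1.15 to 2.14 times the vehicle level, with a median of 1.85. At the 13 others it was 0.987 to 1.44 times, with a median of 1.16. A ratio of at least 1.5, a bound set after the values were seen, was found at 11 of 13 summits in the cluster and at 0 of 13 outside it, beside 229 of the 1158 matched summits outside the window (19.8%). At 126707605, vehicle had 20.6 tags, CXD101 44.0 and MS-275 128. At 126705400, vehicle had 24.4, CXD101 50.8 and MS-275 118. By these levels CXD101 lay between the other groups at both summits. The vehicle level is an average at both, and at the first the CXD101 level was a whole number of tags before scaling. How near CXD101 was to either group is therefore not given. At the summit at 126806211, CXD101 had 56.3 tags, beside 48.6 in vehicle and 144 in MS-275. The vehicle level is an average there, and the CXD101 level was a whole number of tags before scaling. These 2 levels are thus unlike measures. The 8 matched summits inside Gm31718, at 231 to 264 kb upstream of Irf2bp2, had CXD101 levels 0.987 to 1.44 times those of vehicle. The lowest ratio was at 126857779, with 21.2 tags in vehicle, 20.9 in CXD101 and 59.5 in MS-275. The MS-275 level at these 8 was 1.83 to 4.05 times that of vehicle. The ratio of MS-275 to CXD101 had nearly the same median inside the cluster, 2.32, as outside it, 2.28.

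**Figure D4:**
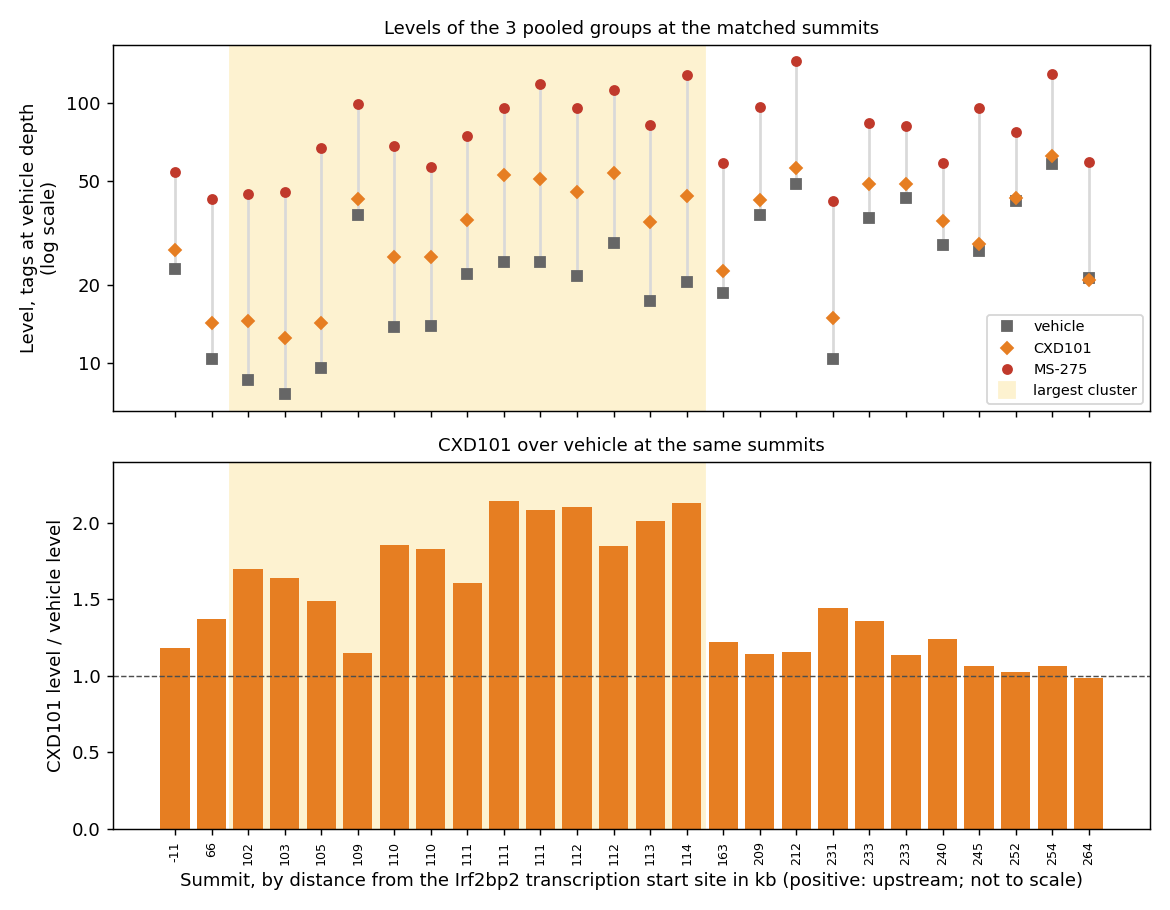
Top, levels in tags at vehicle depth (log scale) of vehicle (grey squares), CXD101 (orange diamonds) and MS-275 (red circles) at the 26 matched summits, ordered along the locus and labelled by distance from the Irf2bp2 start site in kb. Bottom, the CXD101 level divided by the vehicle level at the same summits; the bars in the shaded cluster reach 2.14, and those inside Gm31718, at 231 to 264 kb, lie between 0.987 and 1.44.

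The 4 CXD101 gained peaks lay in 2 intervals of the largest cluster, chr8:126704967-126705470 and chr8:126706058-126706631. Their folds were 2.17, 2.41, 2.14 and 2.25, all below the median of 2.84 of the CXD101 gained list. Their CXD101 levels were 54.5, 61.6, 58.9 and 40.5 tags over 24.6, 25.0, 27.0 and 17.4 in vehicle. Read instead as the control of the direct comparison, the CXD101 levels at these summits were 52.8, 50.8, 53.6 and 35.0. The MS-275 gained summits nearest to them, which are measured against the same vehicle libraries, had folds of 3.76, 4.69, 3.76 and 4.52. At each of the 4 the MS-275 level was also above CXD101 in the direct comparison, with folds of 1.74, 2.30, 1.94 and 2.36. All 4 lie in 1 merged site, so they are not 4 separate places. Across the genome, 51 of 284 CXD101 gained peaks (18.0%) met a peak of the direct MS-275 over CXD101 list by at least 1 base. For the MS-275 gained list the count was 268 of 284 (94.4%).

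Of the 32 MS-275 over CXD101 peaks, 26 (81.25%) overlapped an MS-275 gained peak, against 72.2% of the 1650 in the genome. The other 6 did not overlap any. Their summits were at 126585800 (fold 1.86), 126590198 (1.54), 126616186 (2.42), 126687119 (2.98), 126852577 (2.22) and 126884561 (2.89). The first is in an intron of Gm26759 and holds the AP-1 match of the sequence printed above. The second is in the 3′ UTR of Irf2bp2 and also in an exon of Gm26759. The next pair lies 22.2 and 93.1 kb upstream of Irf2bp2, and the last pair is in introns of Gm31718.

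The site at 126884561 was the one place in the window where CXD101 was low against both other groups. The CXD101 lost peak chr8:126884400-126884640 had 44 tags in vehicle and 13.3 in CXD101, a fold of 3.14 and a −log10 p of 11.1. The MS-275 over CXD101 peak beside it had 45.7 tags in MS-275 and 15.2 in CXD101, a fold of 2.89, at the depth of the CXD101 libraries. In the genome, 20 of the 1650 MS-275 over CXD101 peaks overlapped a CXD101 lost peak. At the only MS-275 lost peak, chr8:126011090-126011355 in an intron of Kcnk1, vehicle had 47 tags and MS-275 12.2, a fold of 3.63 and a −log10 p of 14.1. Neither a CXD101 lost nor a CXD101 over MS-275 peak was listed there, so the CXD101 level at this site is not given.

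Of the 8 protein-coding genes, 3 had an MS-275 gained peak in the gene or its 5 kb upstream, against 11.7% of all 21755 protein-coding genes. One had an MS-275 lost peak, against 1.68%. None had a CXD101 gained peak, against 0.625%, and none a CXD101 lost peak, against 1.89%. One had an MS-275 over CXD101 peak, against 3.6%. The gene with both gained and direct peaks was Irf2bp2. Its MS-275 gained peak chr8:126591307-126591601 lies in coding sequence, with the summit 2466 bp downstream of the start site. The vehicle level there was 65.0 tags and MS-275 had 118, with a fold of 1.80 and a −log10 p of 8.90. No peak of any list overlapped the 5 kb upstream of Irf2bp2.

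Rbm34 had 1 MS-275 gained peak, chr8:126973842-126974070, 2870 bp upstream of its start site. It had 18.4 tags in vehicle and 69.9 in MS-275, a fold of 3.66 and a −log10 p of 19.4, and was not in the direct comparison. Pard3 had 1 MS-275 gained interval near its 3′ end, chr8:127592687-127593142, with an intronic and an exonic summit. Their folds were 2.62 and 2.36, with 8.40 and 12.0 tags in vehicle and 23.6 and 29.7 in MS-275. The interval also overlaps the 5 kb upstream of the small ribosomal RNA gene Gm22968. Pard3 spans 548 kb, and the rest of it held no peak. Slc35f3, Coa6, Tarbp1 and Tomm20 had no peak of any list, and the MS-275 gained summit nearest to each start site was 269, 146, 93.0 and 28.1 kb away.

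In the window, noncoding genes held more of the peaks than the coding ones, but the share of all noncoding genes with a peak was not computed. The lincRNA gene Gm31718 spans 95.6 kb and had 16 MS-275 gained, 10 MS-275 over CXD101 and 1 CXD101 lost peak in it or upstream. Inside it, on the other strand, A630001O12Rik had 6 MS-275 gained and 4 MS-275 over CXD101 peaks, all of them also counted for Gm31718. One of its MS-275 gained summits, at 126839307, lay 74 bp downstream of the start site in GENCODE, with 27.0 tags in vehicle, 28.7 in CXD101 and 95.3 in MS-275. Its fold was 3.44 over vehicle and 3.26 over CXD101. The vehicle level is a whole number of tags there and the CXD101 level an average, so how near these 2 groups were at the summit itself is not given. Gm26759, antisense to Irf2bp2, had 7 MS-275 gained peaks with folds of 1.97 to 2.87 and 3 MS-275 over CXD101 peaks. Gm45805 had 3 MS-275 gained peaks and 1 MS-275 over CXD101 peak.

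The summit sequences resembled those of the whole list in composition. The median GC content was 50.0% in the 62 MS-275 gained windows of 201 bp and 49.8% in the list. Windows without a CpG were 7 of 62 (11.3%) against 14.8%, and those lying mostly in repeats were 5 (8.06%) against 8.64%. Matches to 8 consensus motifs were searched on both strands. None of the 10 strongest peaks and none of the lost ones held a match, and 46 of the 62 MS-275 gained windows held none. C/EBP (TTGCNNAA) was found in 7 of 62 (11.3%, against 9.02% of the list), KLF/SP (CCGCCC) in 6 (9.68%, against 10.6%) and the IRF consensus in 3 (4.84%, against 2.71%). AP-1 was found in 2 (3.23%, against 2.79%). PU.1 (GAGGAAGT), RUNX (TGTGGTT), CTCF and NRF1 were in none, against 1.83%, 4.79%, 0.283% and 0.236%. Among MS-275 over CXD101 windows, AP-1 was in 3 of 32 (9.38%, 3.24 to 24.2%) against 3.94%, and also in 3 of 32 when the windows were shifted by 10 kb. Within 50 bp of the summit it was in 1 of 32, against 1.88% of the list. The shares of the whole list lay within the 95% Wilson intervals of the window for all of these motifs. A match is a string of letters, and its absence says nothing of the factor.

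Lists of genes that work with those of the locus were looked up across the genome. Of 8 Irf2bp2 partners, 5 had an MS-275 gained peak, beside 11.7% of all protein-coding genes. The transcription factor gene Irf2 had 1 (fold 3.59), the paralog Irf2bpl 1 (2.65), and Vgll4, a cofactor of TEAD factors, 3 (2.32 to 3.23). The NFAT genes Nfatc1 and Nfatc2 had 1 each (3.16 and 2.50), and both also had peaks lost with MS-275 and with CXD101, which 1.68% and 1.89% of all protein-coding genes had. In Nfatc2 the lost peaks at the same place had folds of 4.79 with MS-275 and 4.11 with CXD101. Of 13 polarity genes, 3 had an MS-275 gained peak, against the same 11.7%: Pard3, the Rac activator Tiam1 and the tight junction scaffold Tjp1. Tiam1 had 6 summits (2.26 to 3.50) and, elsewhere in the gene, 2 MS-275 lost and 2 CXD101 lost summits. In the TOM complex 1 of 7 genes, Tomm70a, had one (fold 4.32), among the annotated K2P channels 1 of 14 (Kcnk12), and in the Slc35f family 1 of 6 (Slc35f1). No gene of 9 for cytochrome c oxidase assembly had a peak. Several of these genes are long, and a long gene has more room for a peak.

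The lists hold differences between groups, so they cannot show whether a marker gene is open in every group, and the identity of the cells was not tested. Of 5 monocyte markers, Itgam, Ly6c2 and Cx3cr1 had MS-275 gained peaks, and Cx3cr1 also had MS-275 lost and CXD101 lost ones. Of 5 neutrophil markers, Ly6g, S100a9, Mpo and Elane had MS-275 gained peaks, with folds of 1.86 to 3.25. Both counts stand beside the 11.7% of all protein-coding genes with such a peak. Of 4 macrophage markers only Mrc1 did (2.61). No T cell marker of 3 and no hepatocyte marker of 3 had a peak. Whether a change in the sorted cells had a part in the peaks of the locus was not tested.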

How the data were processed

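ATAC-seq libraries of vehicle, MS-275 and CXD101 M-MDSCs (2 per group) had been mapped to mm10 with Bowtie2 and compared with MACS2 2.2.7.1 by the authors, who pooled the libraries of a group. The deposited lists give summit positions, a fold ratio over the control, −log10 p and q values and a score per peak, and end at a q of 0.05. Depth per library was unknown. Whole tags were solved from the fold (pseudocount 1) and p, which gave a solution for all 11800 peaks and a depth of MS-275 1.14 times and of CXD101 1.14 times that of vehicle; on simulated peaks 99.8 to 100% were recovered. Levels of the group that is higher in a list are tags at the summit. Those of the group it is compared with are MACS2 control levels, which can be averages over wider stretches. Genes came from GENCODE M21 and sequences from RefSeq GRCm38. Promoters reach 5 kb upstream. Intervals given with percentages are 95% Wilson intervals, which treat summits or sites as independent and are too narrow where they are not. Peaks overlapped by at least 1 base. Python 3.11.15, pandas 2.3.3, scipy 1.17.1 and pysam 0.24.0 were used.

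Named were the 8 listed genes, other genes of the window with a peak, partner list members with a peak, the 10 strongest MS-275 gained peaks, peaks of the other lists, and those nearest the edges. Members, lists and comparisons were chosen with earlier results of these data known. The alternatives were stricter q or fold bounds, intervals in place of summits, other overlap rules, promoters and windows.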

Additional observations from a re-analysis of the deposited data

Results flagged for a closer look

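The difference between the inhibitors drew attention, because MACS2 tested it directly rather than through vehicle. In the window, 32 peaks had more signal in MS-275 than in CXD101 and none had more in CXD101 than in MS-275. Over the genome the 2 direct lists held 1650 and 2 peaks, so this direction is that of the whole series. The MACS2 test compares the pooled libraries of both groups and has no replicate spread behind it, and the window was chosen with these peaks in view.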

How the results depend on the processing

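Of 60 alternative values, 52 kept their main value within the bounds set for them. This tally does not measure robustness, since some values could not move. The CXD101 over MS-275 count was 0 at every setting, and a motif absent within 100 bp is also absent within 50 bp. The values counted as kept include a fall from 32 to 23 MS-275 over CXD101 peaks at a fold of at least 2. Counted as intervals, the MS-275 gained peaks fell from 62 to 41 and the CXD101 gained peaks from 4 to 2. Without the strongest peak, the MS-275 lost and CXD101 lost counts were both 0, since each list had 1 peak here. With summits within 250 bp in place of overlap, 41.9% of the MS-275 gained peaks were shared with MS-275 over CXD101 in place of 58.1%. The share of the whole list was then 14.0% in place of 17.4%. With protein-coding genes alone, 1.61% of MS-275 gained peaks were in promoters, against 23.5% of the whole list. With 50 bp either side of the summit, the IRF consensus was in 1.61% and KLF/SP in 3.23%, against 1.49% and 5.33% of the whole list. AP-1 was then in 1.61% and C/EBP in 6.45%, against 1.39% and 4.26%. Among MS-275 over CXD101 windows, AP-1 was in 1 of 32 in place of 3. The stretch by stretch split of CXD101 levels was made after the values were seen.

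No paired analysis was possible because MACS2 was run on tags of both libraries together. Leaving out each replicate in turn was not run for that reason. Not shown in the lists are the spread between animals, sites with a q above 0.05, and the level of any group away from a listed summit. The MACS2 p-values cover counting error in pooled tags only.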
